A study of Mus musculus with 9 samples.

Results

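Transcripts of 9 BCL2 family genes, targets of senolytic drugs and their binding partners, were followed in 3D mouse muscle constructs that were irradiated, grown beside an irradiated construct, or grown as normal controls. The members were chosen by symbol: the survival genes Mcl1, Bcl2l1, Bcl2 and Bcl2l2, the effector genes Bak1 and Bok, and the BH3-only genes Bcl2l11, Bad and Bid. They are 9 of the 40879 gene symbols in the count files, and all 9 were among the 11980 genes with enough counts to be tested. None of the 9 passed the test in any comparison. Bcl2l11, which encodes BIM, was the member whose libraries separated by group, with 61.2 ± 21.7 CPM (read counts scaled to a common library total) in normal, 30.8 ± 6.25 in cocultured and 17.7 ± 5.90 in irradiated constructs (mean ± SD, n = 3 libraries each). It was 1 of 9 members in each comparison, and such separation was common. Groups did not overlap in 15.7% of all genes tested for irradiated against normal, 13.2% for cocultured against normal and 14.5% for irradiated against cocultured.

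Proteins of the BCL2 family decide whether the outer mitochondrial membrane is opened, the step that releases cytochrome c and activates caspases. The effectors BAX, BAK and BOK open the membrane, and the survival proteins BCL2, BCL-XL, BCL-W and MCL1 hold BAX and BAK in check. BH3-only proteins such as BIM, BID and BAD bind survival proteins or effectors and shift the balance towards death. Senescent cells often depend on survival proteins, which is why BH3-mimetic compounds that bind BCL2, BCL-XL and BCL-W are used as senolytics.

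All constructs held C2C12 cells, an established mouse myoblast line (genotype labelled WT), embedded in extracellular matrix from muscle tissue, and all spent 2 days in growth medium before 10 days in a differentiation medium with 10% equine serum. Normal constructs (3 libraries) received no irradiation and shared a dish with another normal construct. Irradiated constructs (3 libraries) were made senescent with X-rays, 20 Gy given once, and were grown beside another irradiated construct. Cocultured constructs (3 libraries) were themselves left without irradiation, and each grew beside an irradiated construct in its dish, a setting meant to expose them to its secreted factors. All 3 groups thus hold 1 cell line, and the comparisons ask how the transcripts differ after irradiation and after sharing its medium. The study's description counts 2 constructs in the normal and in the irradiated group where the labels hold 3 libraries each, and each dish held 2 constructs. The p-values therefore measure the spread between these libraries, some of which may share a dish.

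Each library was made from the 3' ends of polyadenylated RNA, so a transcript gives about the same number of reads whatever its length, and levels are given as CPM scaled by TMM factors, which adjust for differences in library composition. The libraries held between 4840993 and 8290468 counts. The TMM factors ran from 0.556 (normal 3) to 1.29 (irradiated 2), and mitochondrial genes took 29.7% of the counts in normal 3 and 21.6% in irradiated 1, against 5.76% to 13.4% in the other libraries. By the chi-square of their counts per gene these 2 libraries were closer to each other (69.3) than to libraries of their own groups (216 to 274). The predicted gene Gm26917 took 23.9%, 27.4% and 9.47% of the counts in normal, 12.0%, 4.76% and 5.28% in irradiated and 3.38% to 3.91% in cocultured libraries. Of the 2926 genes with a mean of 20 to 50 CPM, 17.0% were at 0 in irradiated 2 and 13.3% in irradiated 3, against at most 4.34% elsewhere, so genes of that level were at 0 more often in those 2 libraries than in the rest. Myoblast and myotube markers were all counted, apart from Myf5 at 0 in irradiated constructs, and their summed level spread from 3354 to 70450 CPM over the 9 libraries. Summed markers of macrophages, endothelium, adipocytes, epithelium and Schwann or neural cells stayed at or below 75.2 CPM in each library. The summed fibro-adipogenic markers were higher in the cocultured libraries (359 to 427 CPM in normal, 407 to 442 in irradiated, 544 to 832 in cocultured libraries). Only the sum of these 5 genes was compared, without a test, and their part in the results was not tested. In bulk samples such as these, fewer cells of a type and less RNA per cell cannot be told apart.

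Promoter sequence is shown for 2 of the 9 members, Bcl2l11 and Mcl1, neither of which was called in any comparison. It covers the 250 bases before each RefSeq start site, in build GRCm38.p6 and on the plus strand for all 3 windows. The submitters' processing notes name GRCm39 for the reads. Capitals mark matches, on either strand, to a GC box (GGGCGG or CCGCCC, the core bound by SP1-like factors), a CCAAT box (CCAAT or ATTGG) or a FoxO core (GTAAACA or TGTTTAC). FoxO factors are known activators of BIM transcription. The window of the first Bcl2l11 start site lies at chr2:128125788-128126037, that of the second at chr2:128127325-128127574 and that of Mcl1 at chr3:95658471-95658720.
Bcl2l11 start site 1: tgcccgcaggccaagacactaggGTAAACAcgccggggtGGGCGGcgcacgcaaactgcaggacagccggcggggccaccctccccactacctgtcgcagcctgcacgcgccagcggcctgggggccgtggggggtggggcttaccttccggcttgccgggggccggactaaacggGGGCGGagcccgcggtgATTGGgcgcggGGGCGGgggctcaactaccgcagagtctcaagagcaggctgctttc
Bcl2l11 start site 2: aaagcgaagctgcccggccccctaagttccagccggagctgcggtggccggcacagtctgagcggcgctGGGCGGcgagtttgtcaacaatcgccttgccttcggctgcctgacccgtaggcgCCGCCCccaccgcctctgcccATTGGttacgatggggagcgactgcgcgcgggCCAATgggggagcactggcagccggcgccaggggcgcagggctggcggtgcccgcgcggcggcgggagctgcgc
Mcl1: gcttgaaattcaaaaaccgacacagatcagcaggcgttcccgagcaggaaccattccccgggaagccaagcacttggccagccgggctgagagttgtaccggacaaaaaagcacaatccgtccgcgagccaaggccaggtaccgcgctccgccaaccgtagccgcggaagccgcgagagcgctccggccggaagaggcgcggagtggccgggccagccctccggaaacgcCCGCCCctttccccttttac
The window of Bcl2l11 start site 1 held a FoxO core 227 bases before the start, GC boxes at 211, 74 and 46 bases and a CCAAT box at 57 bases. That of start site 2 held GC boxes at 181 and 127 bases and CCAAT boxes at 106 and 74 bases. Mcl1 held a single GC box, 20 bases before its start. Over the 13 RefSeq start sites of the 9 members, 8 windows held a GC box, 3 a CCAAT box and 1 a FoxO core. Among 32851 mouse promoters of the same length the shares were 32.7%, 33.8% and 3.17%. An E-box (CAGCTG) or a TATA box (TATAAA or TTTATA) was in none of the 13 windows and in 13% and 12.4% of all promoters. These matches describe letters in the windows and were not compared with binding.

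The order of the members was stable at the top. Mcl1 was the most abundant member and Bad the next in all 9 libraries, with means over the 9 libraries of 151 and 70.5 CPM. Bcl2l11 followed with 36.6 CPM, then Bcl2l1 with 19.1, Bok with 18.8, Bak1 with 15.3, Bcl2 with 11.4, Bid with 7.08 and Bcl2l2 with 5.22 CPM. Within this lower range the neighbours overlapped in their levels over libraries and were not compared by a test, and several members had libraries without a count. Bcl2 was at 0 in 4 libraries, Bcl2l2 in 3, and Bcl2l1, Bid and Bok in 1 each. A count of 0 allows a level of up to 0.282 to 0.821 CPM, depending on the library (3 counts, counting error only).

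**Figure D1:**
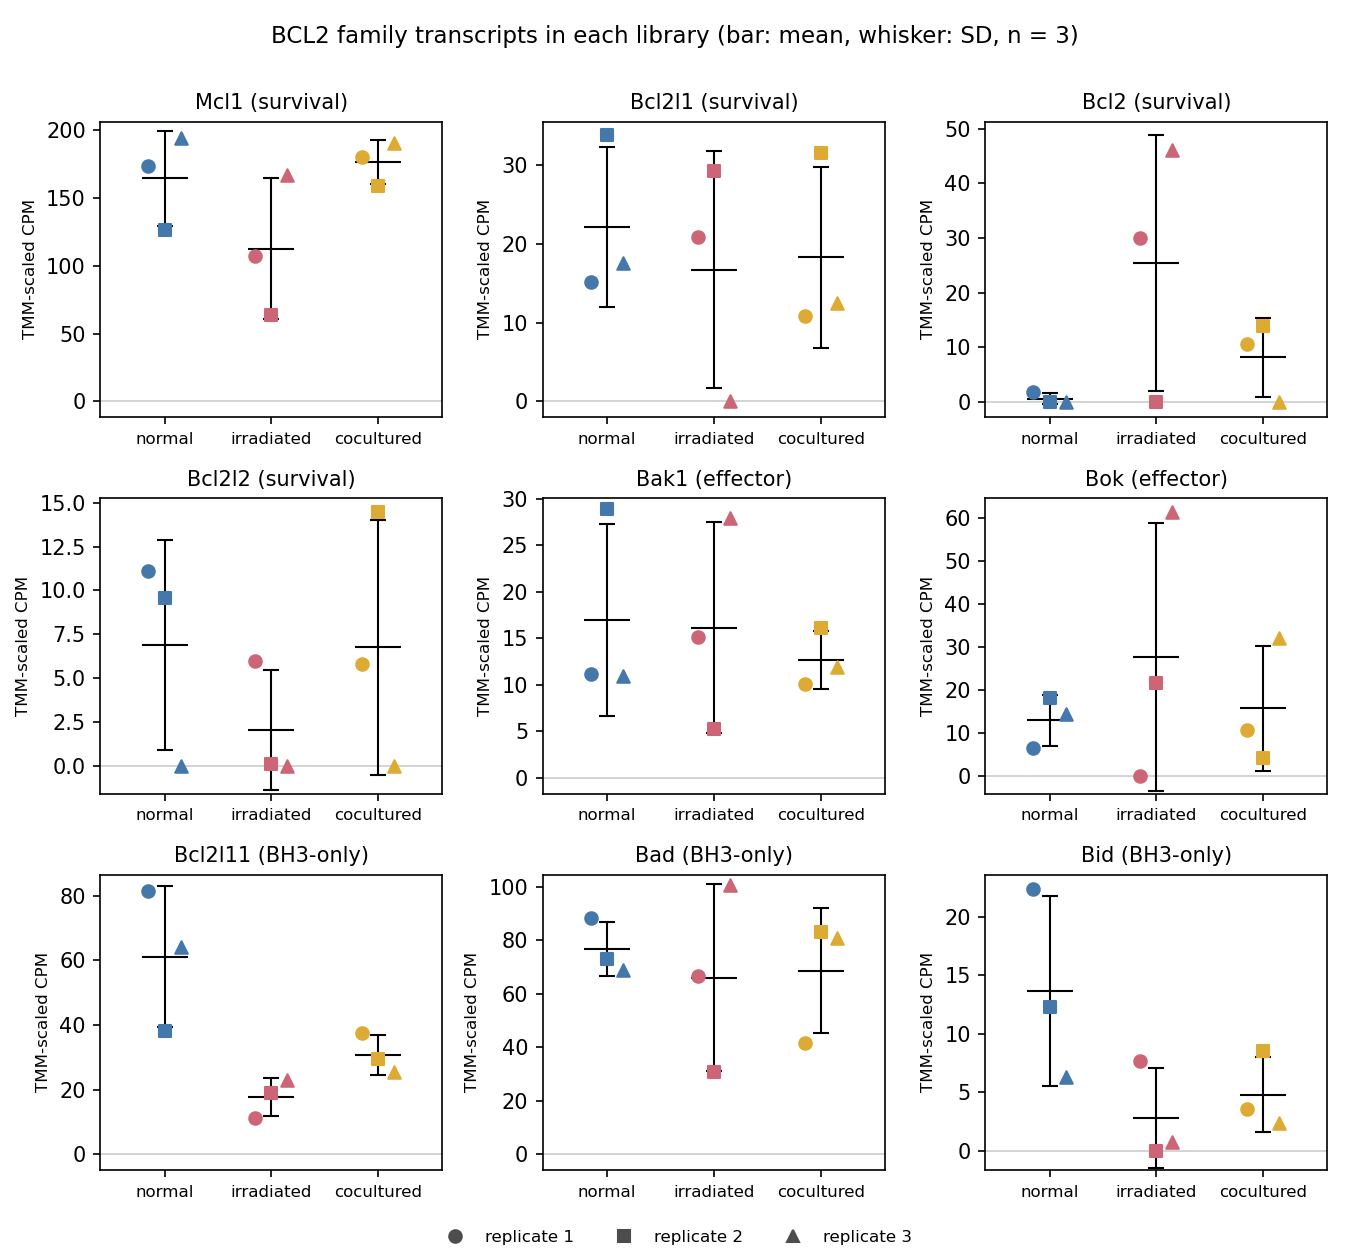
TMM-scaled CPM of the 9 members (1 panel each with its own y range, grey line at 0) in normal, irradiated and cocultured libraries. Symbols give the replicate number, the bar the mean and the whisker the SD of 3 libraries. Bcl2l11 has all 3 normal libraries above 38 CPM and all 3 irradiated libraries below 23 CPM, while the other panels show overlapping groups.

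Against normal constructs, irradiated constructs gave no member a call at an adjusted p under 0.05, with 7 of 11980 genes called (0.0584%) by the quasi-likelihood test of edgeR after Benjamini-Hochberg adjustment. At an unadjusted p under 0.05 stood 1 member, Bcl2l11, where 10.3% of all genes tested stood. DESeq2 called 0 members and put Bcl2 and Bcl2l11 under an unadjusted 0.05, and limma voom called 0 and put 0 there. Of the 9 fold changes 7 were negative, with a median of -0.41 on the log2 scale, beside -0.21 over all genes tested, of which 41.8% were positive. Cocultured against normal constructs, which share the same 3 normal libraries, gave 0 members and 0 genes called (0%), 0 members and 4.11% of genes at an unadjusted p under 0.05, and 0 members under either of the other tools at both thresholds. There 6 of the 9 members were negative, with a median of -0.16 beside -0.07 for all genes, of which 46.9% were positive. Irradiated against cocultured constructs gave 0 members and 4 genes called (0.0334%) with edgeR, 0 members at an unadjusted p under 0.05 where 9.58% of genes stood, and a median of -0.13 beside -0.10, with 6 members negative and 46.7% of all genes positive. In that comparison DESeq2 and limma voom also called 0 members, and limma voom put Mcl1 alone under an unadjusted 0.05.

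**Figure D2:**
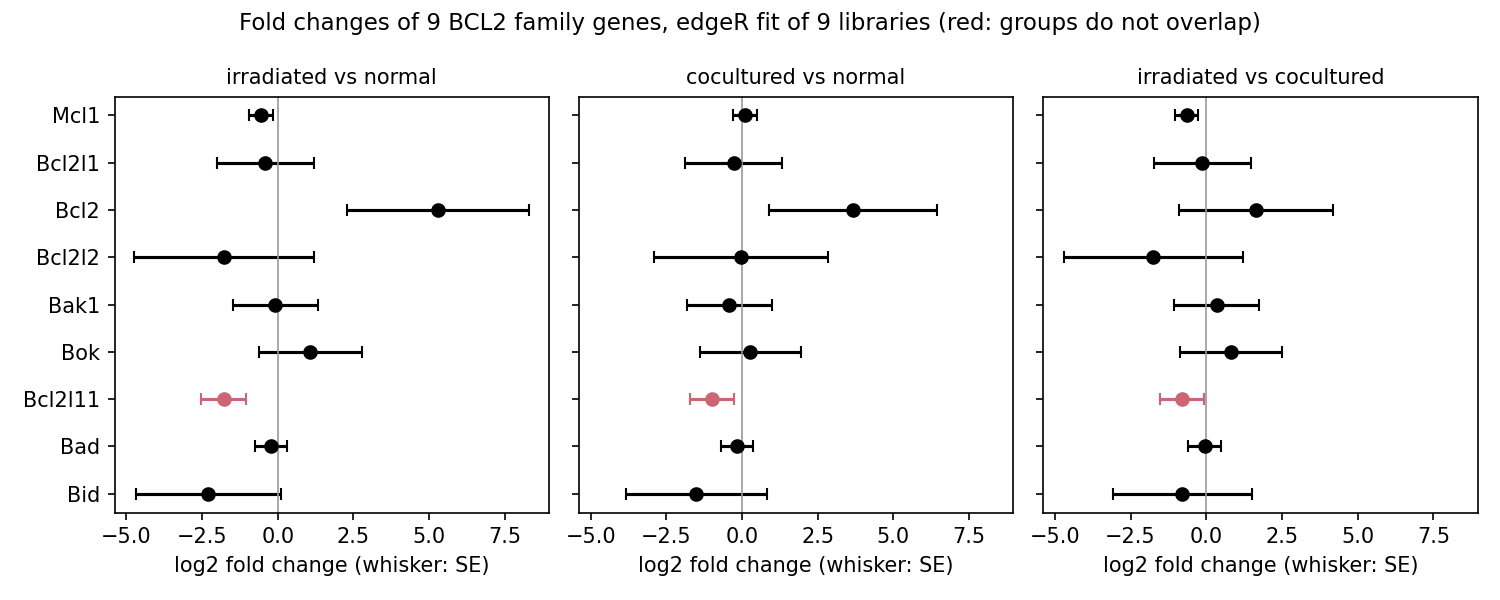
Log2 fold change of each member (point) in the 3 comparisons, from 1 edgeR fit of 9 libraries, on a shared x axis. The whisker is an approximate standard error, derived from the fold change and the test's F statistic. Red marks members whose groups do not overlap, which is Bcl2l11 in each panel. Mcl1 and Bad have the shortest whiskers and Bcl2, Bcl2l2 and Bid the longest.

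Among the survival genes, Mcl1 encodes a short-lived protein that restrains BAK and BIM and is the survival member with the highest level here. Its CPM was 174, 126 and 194 in normal, 107, 63.9 and 167 in irradiated, and 180, 159 and 191 in cocultured libraries. Irradiated 1 and irradiated 2 lay below every other library, while irradiated 3 lay inside the range of both other groups, so the groups overlapped. The log2 fold change of irradiated against normal was -0.55 ± 0.39 (SE; edgeR's quasi-likelihood test, adjusted p = 0.863). Without irradiated 3 it was -0.95 and without irradiated 2 it was -0.26, and with scaling to library totals alone it was -0.09. Cocultured against normal gave 0.10 ± 0.39 (edgeR, adjusted p = 1) and irradiated against cocultured -0.65 ± 0.39 (edgeR, adjusted p = 0.625), the latter -1.05 without irradiated 3 and -0.37 without irradiated 2. When only library totals were used for scaling, the cocultured libraries lay above the normal ones, at 191 to 225 against 107 to 167 CPM of the total, with a log2 fold change of 0.69. That scaling moved the median over all genes by 0.55 in the same comparison. The share of all genes whose groups did not overlap under it was not computed.

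Bcl2l1 encodes BCL-XL, a main target of senolytic BH3 mimetics. It stood at 15.2, 33.9 and 17.5 CPM in normal, 20.9, 29.3 and 0 in irradiated, and 10.8, 31.5 and 12.5 in cocultured libraries. Replicate 2 was the highest library of each group, irradiated 3 had no count, and the groups overlapped. The log2 fold changes were -0.41 ± 1.61 for irradiated against normal, -0.28 ± 1.61 for cocultured against normal and -0.13 ± 1.61 for irradiated against cocultured (edgeR, adjusted p = 1 in each). Without irradiated 3 the first was 0.18. Cox4i2, whose model overlaps Bcl2l1, had 45 counts, all in cocultured 3.

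Bcl2, the founding member of the family, was counted in 5 of 9 libraries. Its level was 1.85, 0 and 0 CPM in normal, 30.0, 0 and 46.1 in irradiated, and 10.6, 13.9 and 0 in cocultured libraries, from 9, 0 and 0, then 141, 0 and 393, then 99, 134 and 0 counts. Each group held at least 1 library at 0, so the groups overlapped although the group means ran from 0.616 in normal to 25.4 in irradiated. The fitted log2 fold change was 5.30 ± 3.00 for irradiated against normal (edgeR, adjusted p = 0.630), 3.67 ± 2.78 for cocultured against normal (edgeR, adjusted p = 1) and 1.64 ± 2.55 for irradiated against cocultured (edgeR, adjusted p = 1). The folds against normal rest on the 9 counts of normal 1, since the other 2 normal libraries had none, and without that library they were 10.56 and 8.93. Irradiated against cocultured was 0.87 without irradiated 3 and 1.05 without cocultured 3. The overlapping model Gm37053 had 42 of its 43 counts in cocultured 2.

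Bcl2l2, which encodes BCL-W, was the least abundant member. It stood at 11.1, 9.54 and 0 CPM in normal, 5.96, 0.0940 and 0 in irradiated, and 5.79, 14.5 and 0 in cocultured libraries. Replicate 3 had no count in any group, and irradiated 2 had a single count. The log2 fold changes were -1.77 ± 2.97, -0.03 ± 2.88 and -1.74 ± 2.96 in the 3 comparisons in the same order as above (edgeR, adjusted p = 1 in each). Without irradiated 1 the first became -6.72 and the last -6.70, as 1 count was then left in the irradiated group. Without cocultured 2 the last was -0.53.

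The effector genes gave no separation. Bak1, whose product forms membrane pores beside BAX, had 11.1, 28.9 and 10.9 CPM in normal, 15.1, 5.27 and 27.9 in irradiated, and 10.1, 16.1 and 11.9 in cocultured libraries. The groups overlapped, and the log2 fold changes were -0.08 ± 1.40, -0.42 ± 1.40 and 0.34 ± 1.40 (edgeR, adjusted p = 1 in each). Ggnbp1, whose model overlaps Bak1, had 216 counts beside 941 of Bak1. Bok, an effector found largely at the endoplasmic reticulum, had 6.57, 18.2 and 14.5 CPM in normal, 0, 21.6 and 61.4 in irradiated, and 10.8, 4.34 and 32.2 in cocultured libraries. The irradiated group held both its lowest and its highest library, and the highest was irradiated 3. The log2 fold changes of Bok were 1.08 ± 1.69, 0.27 ± 1.67 and 0.81 ± 1.68 (edgeR, adjusted p = 1 in each), and without irradiated 3 the first was -0.27 and the last -0.54.

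Of the BH3-only genes, Bcl2l11 encodes BIM, which binds all the survival proteins. Its level was 81.3, 38.2 and 64.0 CPM in normal, 11.3, 19.0 and 22.9 in irradiated, and 37.6, 29.5 and 25.3 in cocultured libraries, from 396, 168 and 234, then 53, 202 and 195, then 351, 285 and 224 counts. All normal libraries lay above all cocultured libraries and all of these above the irradiated libraries. The margins were thin at 2 places: normal 2 against cocultured 1, and cocultured 3 against irradiated 3. The log2 fold change was -1.79 ± 0.75 for irradiated against normal (edgeR's quasi-likelihood test, adjusted p = 0.483), so it did not pass over all genes. Cocultured against normal gave -0.99 ± 0.73 (edgeR, adjusted p = 1) and irradiated against cocultured -0.80 ± 0.73 (edgeR, adjusted p = 0.910). Of the 9 members, 1 (Bcl2l11) had groups that did not overlap in irradiated against normal, where 15.7% of all genes tested had such groups and 11.8% were lower. The same 1 of 9 did not overlap in cocultured against normal, beside 13.2% of all genes and 7.51% lower, and in irradiated against cocultured, beside 14.5% and 10.6% lower. The order normal above cocultured above irradiated without overlap held for 41 of the 11980 genes (0.342%), of which Bcl2l11 is 1, and 0.943% of genes had 3 separate groups in any order.

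The separation of cocultured from normal libraries depends on the scaling. By library totals, Bcl2l11 spanned 34.7 to 78.5 CPM of the total in normal and 29.8 to 45.04 in cocultured libraries, which overlap, with a log2 fold change of -0.43. Leaving out normal 3 also made those groups overlap. The irradiated libraries stayed below both other groups under each scaling tried. They also did so without each library in turn, where overlap could arise only through the refitted scaling factors, so this is no independent check. Shares over all genes were computed for the main TMM scaling only. Leaving out normal 3 and irradiated 1 together gave -1.50 for irradiated against normal, and leaving out irradiated 2 and irradiated 3 together gave -2.44. Acoxl, a gene model that overlaps Bcl2l11 in RefSeq, had no count in any library.

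Bad, whose product is held in the cytosol by 14-3-3 proteins when survival kinases phosphorylate it, stood at 88.3, 73.2 and 69.0 CPM in normal, 66.6, 30.8 and 101 in irradiated, and 41.6, 83.2 and 81.0 in cocultured libraries. The 3 normal libraries lay close together and inside the range of the irradiated ones. The log2 fold changes were -0.22 ± 0.53, -0.16 ± 0.53 and -0.05 ± 0.53 (edgeR, adjusted p = 1 in each). Gpr137, whose model overlaps Bad, had 1408 counts over the 9 libraries, and whether the counting used strand is not given in the sources used here. Bid, whose product is cut by caspase-8 and links death receptors to mitochondria, stood at 22.4, 12.3 and 6.29 CPM in normal, 7.67, 0 and 0.704 in irradiated, and 3.54, 8.48 and 2.37 in cocultured libraries. Normal 1 and normal 2 lay above all others, and normal 3 lay below irradiated 1 and cocultured 2. The log2 fold changes of Bid were -2.29 ± 2.41, -1.51 ± 2.34 and -0.79 ± 2.31 (edgeR, adjusted p = 1 in each). Without irradiated 1 the first was -5.22 and the last -3.72, and the last was -0.10 without cocultured 2, -0.21 without irradiated 2 and -0.34 without irradiated 3. Without normal 1 the second was -0.93.

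Ratios between members within a library do not depend on how libraries are scaled. The denominator here, Bcl2l11, is the member already seen to be highest in normal libraries, so its ratios are no independent check. Mcl1 gave 2.13, 3.30 and 3.03 counts per count of Bcl2l11 in normal, 9.47, 3.36 and 7.31 in irradiated, and 4.79, 5.38 and 7.53 in cocultured libraries. All normal libraries lay below all others, although the exact 95% intervals of normal 2 (2.78 to 3.95) and irradiated 2 (2.87 to 3.95) overlap. Of all other genes tested, 24.7% had a ratio to Bcl2l11 that was higher without overlap in irradiated than in normal libraries, and 19.3% in cocultured than in normal, so a higher ratio was not particular to Mcl1. Among the 8 other members it was 1 in each of these, Mcl1, and 0 in irradiated against cocultured libraries, where 16.4% of genes had it. Bad gave 1.09, 1.92 and 1.08 counts per count of Bcl2l11 in normal, 5.91, 1.62 and 4.41 in irradiated, and 1.11, 2.82 and 3.20 in cocultured libraries, and these ranges overlapped.

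**Figure D3:**
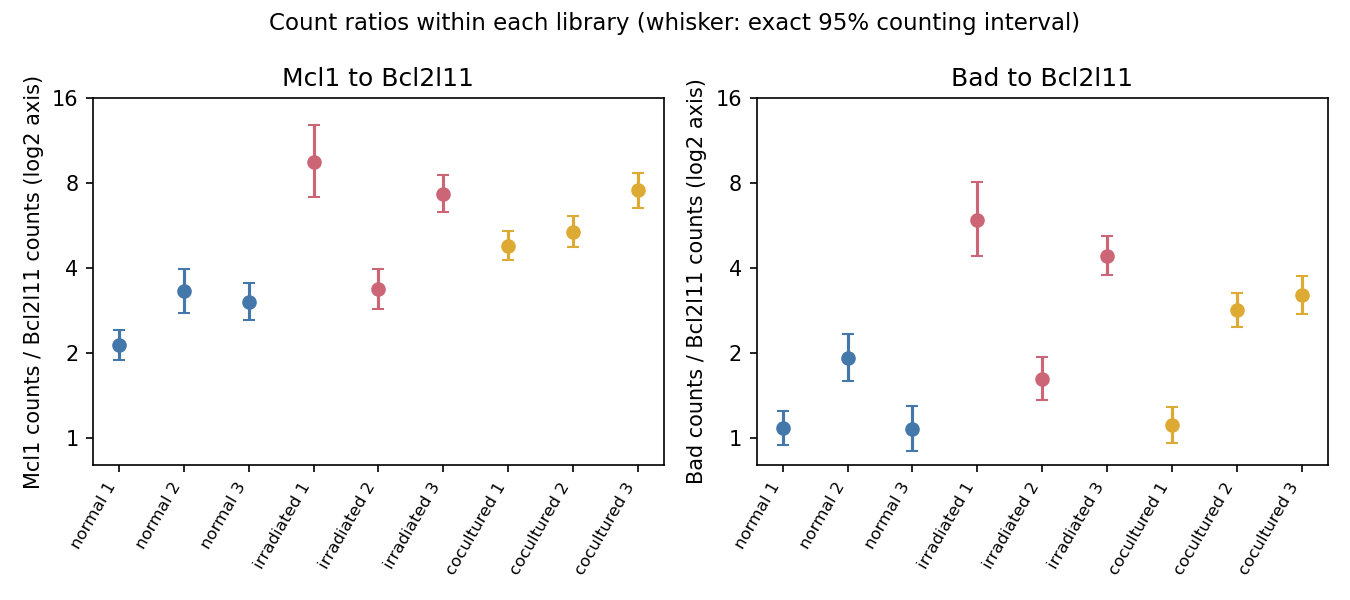
Counts of Mcl1 (left) and Bad (right) per count of Bcl2l11 in each of the 9 libraries, on a log2 axis, with exact 95% counting intervals as whiskers and colours for the groups. The 3 normal libraries have the lowest Mcl1 to Bcl2l11 ratios, 2.13 to 3.30, and the interval of irradiated 2 overlaps that of normal 2.

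By role, BH3-only genes took 46.7%, 36.3% and 37.0% of the family's counts in normal, 32.4%, 29.3% and 29.1% in irradiated, and 26.6%, 33.7% and 30.5% in cocultured libraries. The normal libraries were the 3 highest. Without Bcl2l11 the share of Bid and Bad was 24.1% to 33.5% in normal, 20.4% to 29.4% in irradiated and 16.5% to 27.7% in cocultured libraries, which overlap. Survival genes took 49.0% to 56.2% in normal, 49.96% to 61.9% in irradiated and 57.1% to 66.7% in cocultured libraries, so the cocultured libraries lay above the normal ones. Without Bcl2l11 these shares were 56.1% to 67.7% in normal and 61.4% to 75.9% in cocultured libraries, which overlap. Effector genes took between 4.29% and 20.9% of the counts, with all groups overlapping.

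**Figure D4:**
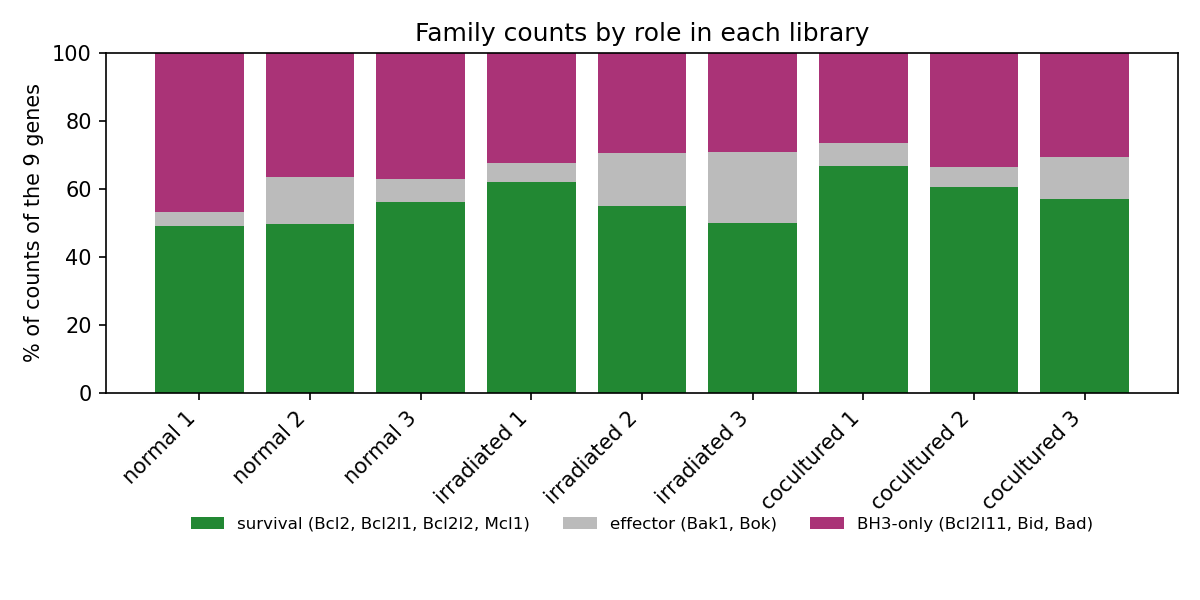
Share of the counts of the 9 members, in percent, taken by survival, effector and BH3-only genes in each library (stacked bars that sum to the whole). The BH3-only share is 36.3% or more in the 3 normal libraries and 33.7% or less in the other 6.

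The other genes of the pathway were taken from 7 lists of 99 genes, of which 80 were tested and 0 were called in any comparison by edgeR's quasi-likelihood test or limma voom. Of the 80 fold changes in irradiated against normal 44 were negative, with a median of -0.12 beside -0.21 over all genes tested. At an unadjusted p under 0.05 stood 8, all lower, which is 10% of the 80 beside 10.3% of all genes (8.7% lower). In cocultured against normal 48 were negative and 3 stood there (Slc25a5 higher, Cflar and Birc3 lower), 3.75% beside 4.11% of all genes. In irradiated against cocultured 44 were negative and 8 stood there, all lower, 10% beside 9.58% of all genes (7.33% lower). DESeq2 called Casp2, Pmaip1, Tnfrsf21 and Tradd lower in irradiated than in normal constructs, the first 3 of these also against cocultured, and none in cocultured against normal. The genes with groups that did not overlap were 2 higher and 12 lower in irradiated against normal (17.5% of the 80 beside 15.7% of all genes), 5 higher and 8 lower in cocultured against normal (16.2% beside 13.2%), and 8 lower in irradiated against cocultured (10% beside 14.5%). Casp2, Pmaip1 and Tnfrsf21 were at 0 in all irradiated libraries and Tradd had a single count there, and Casp2 had counts in 1 normal library only.

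By list, the tested genes numbered 2 other multidomain family genes, 9 other BH3-only and BNIP genes, 15 apoptosome genes and caspases, 5 inhibitors of apoptosis, 13 death receptors and adaptors, 13 mitochondrial channel, carrier and fission or fusion genes and 23 regulators, with 0 called by edgeR in each. The most abundant genes of each list, named whatever their result, were as follows in normal, irradiated and cocultured constructs (mean ± SD of CPM, n = 3). Of the other multidomain genes, Bax, the effector partner of Bak1, gave 17.9 ± 10.4, 15.3 ± 13.4 and 12.6 ± 4.64, and Bcl2l13 gave 27.1 ± 6.25, 48.0 ± 22.8 and 25.2 ± 13.1. Of the other BH3-only and BNIP genes, Bnip2 gave 245 ± 42.0, 265 ± 74.2 and 270 ± 28.1, and Bnip3, a mitophagy receptor, gave 173 ± 27.7, 108 ± 47.8 and 243 ± 71.6. Of the caspases, Casp12 gave 60.2 ± 48.9, 96.3 ± 53.1 and 110 ± 33.8, and Casp4 gave 66.1 ± 4.41, 61.5 ± 45.8 and 60.7 ± 10.6. Of the inhibitors of apoptosis, Birc6 gave 211 ± 57.3, 218 ± 49.7 and 180 ± 43.5, and Xiap, which blocks caspases, gave 79.5 ± 43.1, 85.1 ± 50.6 and 46.8 ± 14.5. Of the death receptor genes, Tnfrsf1a gave 87.1 ± 18.4, 104 ± 70.1 and 73.5 ± 37.3, and Cflar, which restrains caspase-8, gave 112 ± 15.5, 88.4 ± 40.1 and 54.9 ± 10.9. Of the mitochondrial channel, carrier and fission or fusion genes, Slc25a4, the ADP/ATP carrier of the inner membrane, gave 1000.2 ± 1302, 810 ± 670 and 398 ± 79.4, and Tspo gave 255 ± 67.7, 232 ± 68.8 and 274 ± 78.7. Of the regulators, Ywhae, a 14-3-3 gene, gave 710 ± 62.4, 663 ± 231 and 810 ± 63.3.

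Of the 23 regulators tested, 2 (Gsk3b and Huwe1) stood at an unadjusted p under 0.05 in irradiated against normal, 8.7% beside 10.3% of all genes. By TMM-scaled CPM, groups in that comparison did not overlap for 4 of the 23 (17.4%), beside 15.7% of all genes. Of these 4, Bag1 was higher and 3 were lower. Among the 9 other BH3-only and BNIP genes, which include Becn1, it was 4 (44.4%), with Mff higher and 3 lower. Gsk3b, whose kinase marks MCL1 for degradation, stood at 372, 305 and 392 CPM in normal, 224, 223 and 235 in irradiated, and 306, 376 and 282 in cocultured libraries. By TMM-scaled CPM all irradiated libraries lay below all others, with a log2 fold change against normal of -0.65 ± 0.29 (edgeR, adjusted p = 0.483). By library totals that value was -0.21 and the groups overlapped, at 162 to 291 CPM of the total in irradiated and 217 to 359 in normal libraries. Huwe1 and Becn1 were chosen after their values were seen. Huwe1, a ubiquitin ligase for MCL1, stood at 186, 192 and 215 CPM in normal, 115, 114 and 71.3 in irradiated, and 157, 135 and 164 in cocultured libraries, by this scaling the same order of groups without overlap as Bcl2l11. Its log2 fold change was -0.98 ± 0.33 for irradiated against normal (edgeR, adjusted p = 0.459), and by library totals it was -0.58, with overlapping groups (83.3 to 146 CPM of the total in irradiated, 119 to 180 in normal). Its cocultured value against normal was -0.38, and 0.20 by library totals. Becn1, a BH3-containing autophagy gene, stood at 90.6, 80.2 and 68.7 CPM in normal, 57.1, 40.9 and 18.8 in irradiated, and 31.9, 61.5 and 65.9 in cocultured libraries. Its normal libraries were the 3 highest, with a log2 fold change of -1.04 ± 0.58 for irradiated against normal (edgeR, adjusted p = 0.624). By library totals it was -0.76, and the irradiated (23.3 to 52.5 CPM of the total) and normal libraries (37.99 to 87.4) overlapped.

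**Figure D5:**
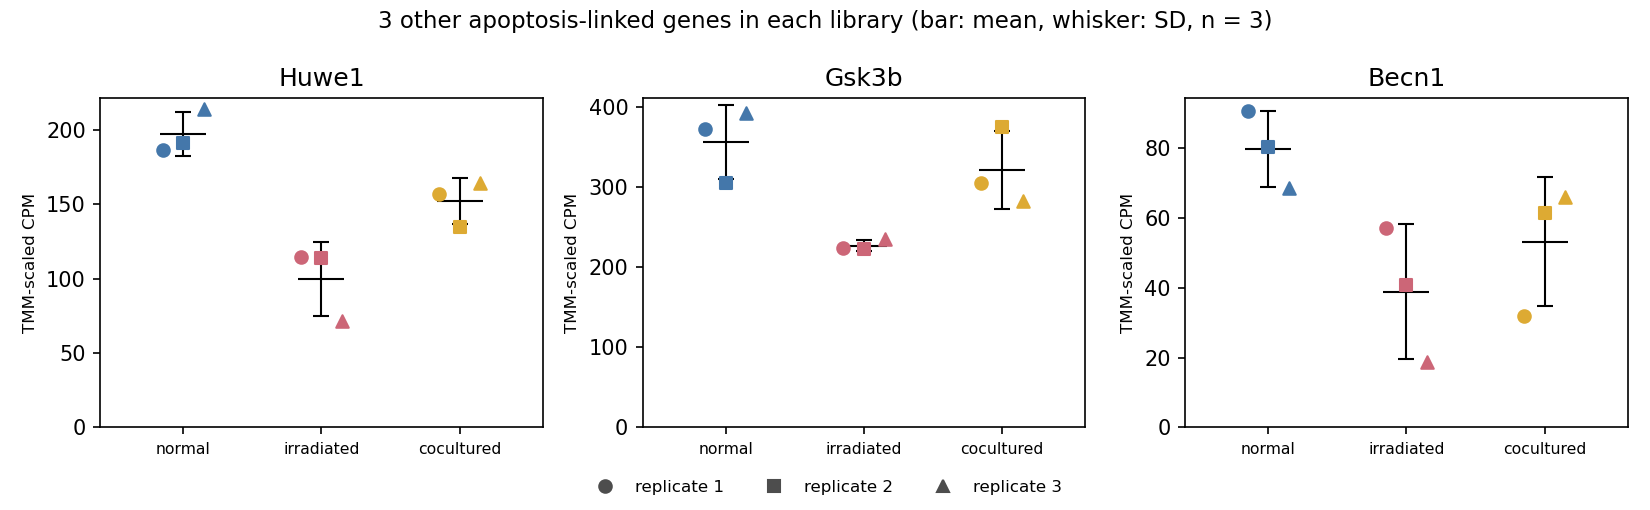
TMM-scaled CPM of Huwe1, Gsk3b and Becn1 (1 panel each, y axis from 0) in each library, with symbols for the replicate, a bar for the mean and a whisker for the SD of 3 libraries. With TMM scaling all 3 irradiated libraries lie below all normal libraries in each panel, by library totals they overlap in each, and none of the 3 genes passed the test over all genes.

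The genes whose log2 CPM followed a member most closely over the 9 libraries were found among 8143 genes with a mean of at least 10 CPM. For Bcl2l11 they were Itgb1, an integrin subunit (Pearson r = 0.966), Esd (0.927) and Cast, the calpain inhibitor (0.927). For Mcl1 they were Dcaf15 (r = 0.972), Maff (0.955) and Selenoh (0.953), and for Bad Zfp869 (0.979), Ptn (0.956) and Peds1 (0.948). For Bcl2l1 they were Itpa (r = 0.994), Poglut1 (0.990) and Ptprf (0.986), and for Bcl2 Tprg (0.951), Fbxo10 (0.950) and Taf4 (0.939). For Bak1 they were Zfp334 (r = 0.910), Tmco1 (0.903) and Mtf1 (0.876), and for Bok Lipe (0.963), Zfp212 (0.954) and Fancc (0.953). These are descriptions over libraries that share the group differences, the scaling and the same libraries at 0, and Bid and Bcl2l2 were below the minimum level.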

How the data were processed

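RNA was measured in 9 libraries, 3 each of normal, irradiated and cocultured constructs. The authors deposited raw read counts per gene symbol, 1 file for each library. The header of each file carries a library number 1 above that of its label, and libraries are numbered here by the labels, so replicate numbers rest on the labels alone. Per the labels' protocols, the libraries were made with a 3' mRNA kit from 100 ng of RNA and read as single-end 75 bp reads. The submitters' processing notes name FastQC, STAR and HTSeq and the build GRCm39 (mm39), with no versions or settings. Of 40879 symbols 18619 had counts, and 11980 passed edgeR's filter on low counts and were tested. A single model of all 9 libraries with group as its term was fitted with edgeR 4.0.16 in R 4.3.3 (TMM factors, quasi-likelihood test). P-values had Benjamini-Hochberg adjustment over all genes tested, with a call at an adjusted p under 0.05. A prior count of 2 was used for log2 CPM values only. It did not moderate the fitted fold changes, which can be very large where a group had few or no counts. The biological coefficient of variation (common dispersion, square root) was 1.32. Within groups, Spearman correlations between libraries were 0.634 to 0.837 and no libraries agreed within sampling noise. Counting intervals are exact binomial ones at 95% and, with reads that carry no molecular identifiers, cover counting error only. Alternatives used DESeq2 1.42.0, limma 3.58.1 (voom), other scalings and filters, a replicate block and fits without libraries. The fitting code was tested on simulated data. The list of members was given by symbol, and the other gene lists were written with earlier results of these data known. Named by rule are all 9 members, from each of 7 lists any gene called by edgeR and the 2 most abundant tested genes, and for each member of at least 10 CPM the 3 genes most like it, predicted genes and pseudogenes left out. Huwe1, Becn1, Bag1, Mff, Slc25a5, Birc3, Casp2, Pmaip1, Tnfrsf21 and Tradd fall outside this rule and were named for their values in these data. Promoter windows came from RefSeq, where 9 of 9 members matched. Coordinates are given for those windows only, in GRCm38.p6.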

Additional observations from a re-analysis of the deposited data

How the results depend on the processing

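No family member was called under any alternative in any comparison. Over 21 alternatives the log2 fold change of Bcl2l11 stayed negative, from -2.44 to -1.29 for irradiated against normal (edgeR, DESeq2 or limma adjusted p 0.189 to 0.862), -1.23 to -0.43 for cocultured against normal (0.571 to 1) and -1.45 to -0.55 for irradiated against cocultured (0.627 to 1). Without each library in turn, the members whose groups did not overlap numbered 1 to 3, 1 to 3 and 1 to 2. The share over all genes was not computed for these fits. With a library left out groups separate more easily, so these counts are not read as a result about the members. Correlations of deviations between same-numbered libraries ran from -0.071 to 0.054 over 9 pairs, and not every library correlated best with its own number. These values cannot show whether same-numbered libraries shared a dish or a batch, since replicates vary widely and the numbers rest on the labels alone. A replicate block gave 23, 0 and 12 genes called over all genes in place of 7, 0 and 4, with 0 members, and it turned Bcl2l2 to 0.0632 in cocultured against normal.

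For all genes tested, irradiated against normal gave 445 calls with DESeq2, 25 with limma voom, 130 with no filter, 0 from the 6 libraries alone, 21 at an adjusted p under 0.1, and 6 to 147 without 1 library. With libraries left out after seeing the data, it gave 20 without normal 3 and irradiated 1, and 190 without irradiated 2 and irradiated 3. Cocultured against normal gave 84 with DESeq2, 52 with no filter, 1 and 96 without those pairs, and 0 without any 1 library. Irradiated against cocultured gave 473 with DESeq2, 105 with limma voom, 9 by library totals, 153 with no filter, 0 from the 6 libraries alone, 8 at an adjusted p under 0.1, 21 and 449 without those pairs, and 1 to 97 without 1 library. The other apoptosis genes gave 4 and 3 calls with DESeq2 in irradiated against normal and against cocultured, and 1 and 3 without irradiated 2 and irradiated 3. The cause was not tested.

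Scaling by library totals moved the median log2 fold change of all genes by 0.35, 0.55 and -0.18 in the 3 comparisons. Under it irradiated against normal turned to 0.28 for Bak1 and 0.16 for Bad, and cocultured against normal to 0.25 for Bcl2l1, 0.32 for Bcl2l2, 0.0737 for Bak1, 0.36 for Bad, 0.20 for Huwe1 and 0.43 for Gsk3b. DESeq2, and its size factors in edgeR, turned Bak1 to 0.0081 and 0.0086 in irradiated against normal and Bad to 0.0395 and 0.0396 in irradiated against cocultured, and upper quartile factors turned Bad to 0.000320 there. Limma voom gave Bok -0.67, -0.0905 and -0.58 in the 3 comparisons and Bak1 -0.13 in irradiated against cocultured. Without irradiated 2 and irradiated 3, Bok was -9.41 against normal and -9.69 against cocultured, since irradiated 1 has no Bok count, and Bcl2l1 was 0.18, Bid 0.67 and Becn1 0.10 against cocultured. Without 1 library, irradiated against normal ranged from -1.10 to 0.18 for Bcl2l1, -0.74 to 0.55 for Bak1, -0.66 to 0.12 for Bad and -0.27 to 1.67 for Bok. Cocultured against normal ranged from -0.92 to 0.17 for Bcl2l1, -1.24 to 0.56 for Bcl2l2, -0.0546 to 0.23 for Mcl1, -0.65 to 0.21 for Bak1, -0.32 to 0.10 for Bad and -0.78 to 0.72 for Bok. Irradiated against cocultured ranged from -0.82 to 0.52 for Bcl2l1, -0.32 to 0.76 for Bak1, -0.50 to 0.28 for Bad and -0.54 to 1.87 for Bok. Bcl2l2 and Bid had no value under a minimum mean of 10 CPM. With mitochondrial genes and Gm26917 removed, the 3 groups of Bcl2l11 again did not overlap.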
